A study of Mus musculus with 8 samples.

Results

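*Mybpc1* and *Mybpc3* encode the slow skeletal and the cardiac isoform of myosin-binding protein C (MyBP-C), and they are 2 of the 16994 genes in the count table. The pair was chosen on measured values: *Mybpc1* because its counts were low in TKO libraries and high in the WT infarct zone, and *Mybpc3* as its cardiac counterpart. RNA was sequenced from hearts of male WT mice and of TKO mice, which lack TIGAR in every tissue, a phosphatase that restrains glycolysis and was first described as a target of p53. For the making of the TKO mice the study refers to earlier work, and it traces its floxed Tigar line to C57BL/6N Tigar tm1a(EUCOMM)Wtsi animals. Myocardial infarction (MI) was induced at 16 weeks of age by ligating the left anterior descending artery, and infarct, border, and remote zones were taken 4 weeks later. Left ventricle (LV) tissue of each genotype is the reference here. The labels of these libraries give left ventricle heart tissue only. The sources used here do not state whether it came from sham-operated or unoperated hearts. Each genotype and region has 1 library, 8 in all, and RNA of 3 mice was pooled for each infarct zone library. No difference between 2 libraries therefore has a replicate check, and the intervals given with ratios cover counting error only.

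MyBP-C proteins sit on the thick filament of the sarcomere, where they bind myosin, titin, and actin and slow or ready the myosin heads, depending on their phosphorylation. The heart normally relies on the cardiac isoform, and mutations of its gene are a frequent cause of hypertrophic cardiomyopathy. The slow isoform (*Mybpc1*) and the fast isoform (*Mybpc2*) are products of skeletal muscle, and the slow isoform is made in fast as well as slow fibers.

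*Mybpc1* (ENSMUSG00000020061) lies on the minus strand of GRCm38 at chr10:88518279-88605152, with 29 exons in its longest transcript of 3922 bases. *Mybpc3* (ENSMUSG00000002100) lies on the plus strand at chr2:91118144-91136516, with 35 exons in a transcript of 4163 bases. No stretch of 31 bases in the transcripts of *Mybpc3* recurs in another gene. Of the stretches of that length in *Mybpc1*, 4.82% recur, all in an overlapping gene on the opposite strand that has no row in the table. The 250 bases upstream of each RefSeq start (GRCm38.p6) are shown here because the pair is read so differently in the same tissue. *Mybpc1* is printed from the minus strand, chr10:88605153-88605402, and *Mybpc3* from the plus strand, chr2:91117894-91118143, both 5′ to 3′. Capitals mark E-boxes (CANNTG, bound by basic helix-loop-helix factors such as those of the myogenic program), GATAA, and the core CTANNNNTA of MEF2 sites, each searched on both strands.
Mybpc1: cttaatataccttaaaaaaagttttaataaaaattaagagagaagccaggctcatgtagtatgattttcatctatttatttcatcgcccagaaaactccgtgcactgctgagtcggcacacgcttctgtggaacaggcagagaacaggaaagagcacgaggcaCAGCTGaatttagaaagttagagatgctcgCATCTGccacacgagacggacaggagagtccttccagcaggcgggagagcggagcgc
Mybpc3: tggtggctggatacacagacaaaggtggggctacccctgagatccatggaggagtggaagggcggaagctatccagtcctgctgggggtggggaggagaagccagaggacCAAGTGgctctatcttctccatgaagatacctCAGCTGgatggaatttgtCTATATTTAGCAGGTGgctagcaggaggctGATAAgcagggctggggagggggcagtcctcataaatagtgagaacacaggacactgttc

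The *Mybpc1* window held 2 E-boxes, at 87 and 57 bases before the start, and none of the other motifs searched. The *Mybpc3* window held 3 E-boxes, 1 GATAA, and 2 overlapping matches to the MEF2 core that abut the E-box at 80 bases. Neither window held TATAAA or CATTCC. Of 32851 promoter windows of this length, 66.2% held an E-box, 22.6% GATAA, 19% the MEF2 core, 12.4% TATAAA, and 12.6% CATTCC. These matches describe letters and were not tested as binding sites.

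Library totals ran from 27429240 to 33799249 estimated counts, and levels are given as CPM, library-scaled counts per 1e6 counts, adjusted by edgeR's trimmed mean of M values (TMM). *Tigar*, the deleted gene, had 1066 to 2215 counts in the WT libraries and 51 to 87 in the TKO libraries. The WT infarct and WT border libraries stood apart from the other 6 for transcripts of skeletal muscle fibers, which are described after the members' own values. The WT LV library stood apart for adipocyte genes, whose summed level was 72.3 CPM there, 1.12 in the TKO LV, and at most 15.9 elsewhere. When TMM was dropped for library totals, the median gene shifted by 0.85 on the log2 scale between the WT infarct zone and LV and by 0.55 in TKO, so infarct zone values depend on the scaling.

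In WT hearts *Mybpc1* had 279 estimated counts in infarct tissue, 47 in border tissue, 8 in LV, and 6 in remote tissue. The TKO libraries had 10 counts in infarct tissue, 3 in border tissue, 1 in LV, and 1 in remote tissue. The transcript was thus scarce outside the WT infarct and border zones: the WT infarct library held 78.6% of the 355 *Mybpc1* counts, and with the WT border library 91.8%. Outside these 2 libraries the count ran from 1 to 10, and 3 libraries, all TKO, were at or below 3 counts, which correspond to 0.0709 to 0.116 TMM-scaled CPM across libraries. *Mybpc1* passed the filter used for tests, a mean CPM of at least 1, only through the WT infarct library: its mean CPM was 1.57 with that library and 0.342 without it. In bulk tissue, fewer cells of a type and less RNA per cell cannot be told apart, for this gene as for *Mybpc3*.

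On the TMM scale the level of *Mybpc1* was 6.59 CPM in the WT infarct zone (95% Poisson interval 5.84 to 7.42) and 1.53 in the WT border zone (1.12 to 2.03). It was 0.292 in the WT LV (0.126 to 0.575), 0.280 in the TKO infarct zone (0.134 to 0.514), and 0.197 in the WT remote zone (0.0724 to 0.429). The TKO border zone followed at 0.101 (0.0209 to 0.296), the TKO LV at 0.0386 (0.000978 to 0.215), and the TKO remote zone at 0.0332 (0.000841 to 0.185). Of these neighbors in rank, the first 3 were separated by more than counting error: the WT infarct zone was 4.32-fold above the WT border zone (3.17 to 6.02), which was 5.23-fold above the WT LV (2.45 to 12.8). From the WT LV downward no neighbor differed from the next beyond counting error. The plot of both members by library shows this order next to that of *Mybpc3*.

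**Figure D1:**
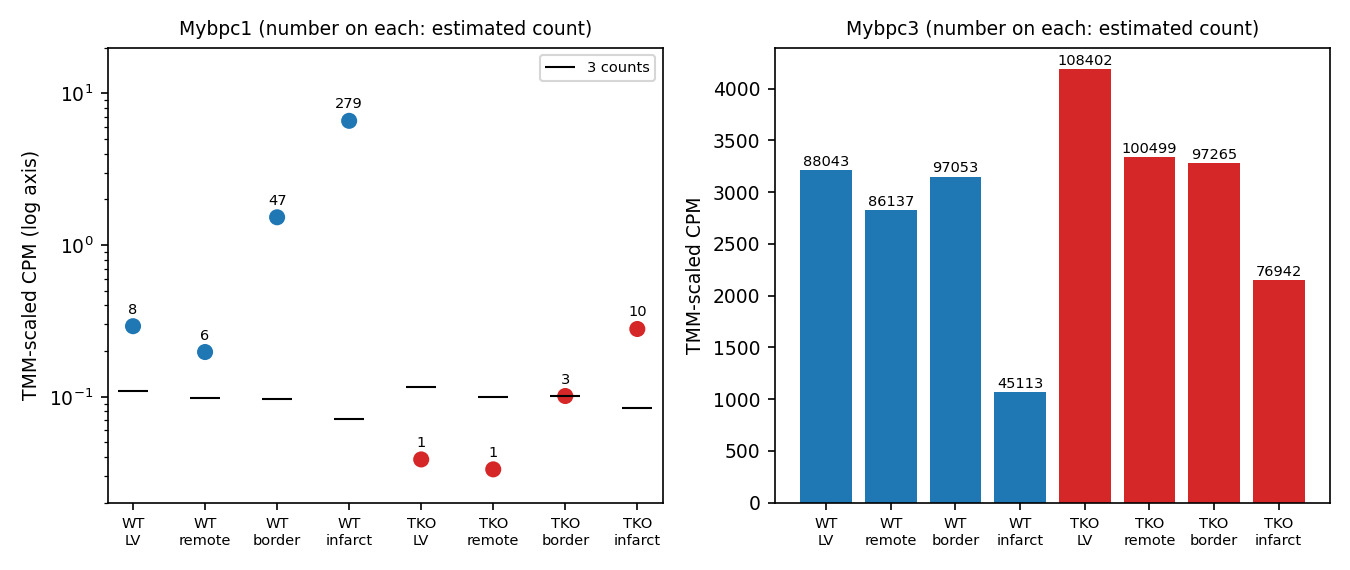
TMM-scaled CPM of *Mybpc1* (left, log axis) and *Mybpc3* (right, linear axis from 0) in each of the 8 libraries, WT in blue and TKO in red, 1 library per point or bar, with the estimated count printed on each. Short black lines mark the level of 3 counts in that library. *Mybpc1* runs from 1 to 279 counts with the WT infarct and border zones on top, whereas *Mybpc3* runs from 45113 to 108402 with both infarct zones at the bottom.

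The TKO over WT ratio of *Mybpc1* was 0.0424 in the infarct zone (95% interval 0.0201 to 0.0792) and 0.0663 in the border zone (0.0132 to 0.206). In the LV, at 1 count against 8, it was 0.132 (0.00298 to 0.987), and remote tissue, at 1 against 6, gave 0.168 (0.00366 to 1.39), so no difference was detectable there at this depth. After a prior count of 2, *Mybpc1* was at least 2-fold lower in TKO in all 4 regions, a class that held 3.56% (LV), 1.45% (infarct), 3.25% (border), and 2.36% (remote) of the 12999 tested genes. The gene was chosen for this difference, so no test is given and nothing is read from that count. Without the infarct and border zones, the LV and remote libraries together held 2 TKO and 14 WT counts. With only the infarct zone left out, the sums were 5 and 61. These sums join libraries of different regions and are values the gene was chosen on, so no ratio is given.

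Relative to the LV of the same genotype, *Mybpc1* was 22.6-fold higher in the WT infarct zone (11.3 to 52.8; 40.1-fold with total-count scaling), a zone where 18.8% of tested genes passed 2-fold upward. In the WT border zone it was 5.23-fold higher, and 5.39% of genes passed 2-fold upward. The WT remote zone, with a ratio of 0.675 (0.193 to 2.22), did not differ from the LV beyond counting error. In TKO the infarct zone ratio was 7.24, but at 10 counts against 1 its interval ran from 1.03 to 314, and 16.2% of genes passed 2-fold upward. The TKO border and remote zones and LV were all at or below 3 counts, and no ratio is given.

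**Figure D2:**
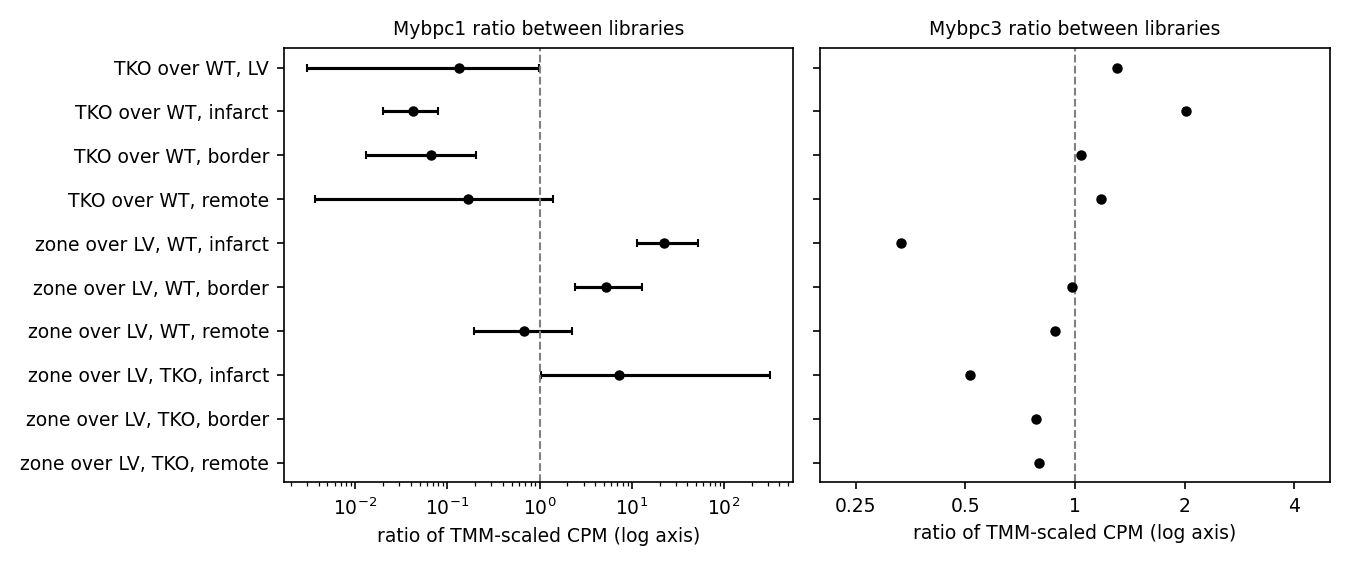
Ratios of TMM-scaled CPM between 2 libraries for *Mybpc1* (left) and *Mybpc3* (right) on log axes, TKO over WT in each region and each zone over the LV of its genotype. Bars are 95% intervals from counting error, narrower than the points for *Mybpc3*, and the dashed line marks no difference. Ratios of *Mybpc1* between libraries at or below 3 counts are left out. The TKO over WT points lie left of the line for *Mybpc1*, from 0.0424 to 0.168, and right of it for *Mybpc3*, from 1.04 (the border zone, 0.973 with total-count scaling) to 2.02.

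In WT hearts *Mybpc3* had 88043 estimated counts in LV, 97053 in border, 86137 in remote, and 45113 in infarct tissue. In TKO hearts it had 108402 in LV, 97265 in border, 100499 in remote, and 76942 in infarct tissue. It ranked 24 among all genes by mean CPM. The TMM-scaled level was 4186 CPM in the TKO LV, 3338 in the TKO remote zone, 3279 in the TKO border zone, 3213 in the WT LV, 3150 in the WT border zone, 2831 in the WT remote zone, and 2152 and 1066 in the TKO and WT infarct zones. Both infarct libraries were lowest, and outside them the highest level was 1.48-fold the lowest. Neighbors in this order from the TKO remote zone to the WT border zone differed by only 1.02-fold, more than counting error allows but with no replicate to set it against.

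Across the 8 libraries *Mybpc3* was lower in the infarct zone than in the other 3 regions, with a log2 change of -1.11 (SE 0.21; adjusted p = 0.0028, edgeR quasi-likelihood test with genotype as block). Regions and genotypes stood in for replicates here, so the p-value says nothing about spread between mice. In this test 28.5% of the 12999 genes were called lower and 29.1% higher, so a call for the infarct zone is common. The ratio to the LV of the same genotype was 0.332 in WT (0.328 to 0.336), past 2-fold, as for 14.8% of tested genes, but 0.590 and short of 2-fold with total-count scaling. In TKO it was 0.514 (0.509 to 0.519), short of 2-fold, where 7.62% of genes were at least 2-fold lower. The border zone ratio was 0.783 in TKO, whereas in WT it was 0.980 and turned to 1.08 with total-count scaling. In the remote zone the ratio was 0.881 in WT and 0.797 in TKO.

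Genes of other cell types moved with the infarct zone. The counts below stand beside 29.1% of all tested genes called higher and 28.5% called lower in the same test. Of the fibroblast list 7 of 8 rose, among them *Col3a1*, *Col1a2*, and *Dcn*. The list's summed level was 8302 CPM in the WT and 6865 in the TKO infarct library against 933 to 2998 elsewhere. All 6 macrophage genes rose, among them *Lyz2*, *Csf1r*, and *Lgals3*. Their sums were 1266 and 938 CPM in the WT and TKO infarct libraries against 233 to 459 elsewhere. Of 6 smooth muscle genes 5 rose, among them *Acta2* and *Tagln*, whereas *Smtn* did not pass (log2 change -0.27, adjusted p = 0.057, edgeR). All 7 measured cartilage and bone genes rose too, among them *Comp*, *Spp1*, and *Chad*. Of 5 endothelial genes, among them *Cdh5*, *Pecam1*, and *Kdr*, 1 rose and 3 fell. No defining marker of the fibroblast, macrophage, or smooth muscle list was at 0 in any library. Their part in the *Mybpc3* result was not tested.

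The TKO over WT ratio of *Mybpc3* was 2.02 in the infarct zone (1.99 to 2.04), where 2.42% of tested genes were at least 2-fold higher, but 1.65 and short of 2-fold with total-count scaling. It was 1.30 in the LV (1.29 to 1.31), 1.18 in the remote zone (1.17 to 1.19), and 1.04 in the border zone (1.03 to 1.05), the last turning to 0.973 with total-count scaling. Tested across the 4 regions as blocks, the difference was 0.42 on the log2 scale (SE 0.20) and did not pass (adjusted p = 0.34, edgeR quasi-likelihood test), with 0.0769% of genes called higher and 0.0615% lower in TKO. How far the infarct zone departed from the genotype difference elsewhere was 0.79 (SE 0.18). It did not pass in edgeR (unadjusted p = 0.0066, adjusted p = 0.41), which called 0.00769% of genes, but passed in the DESeq2 Wald test (adjusted p = 0.0058), which called 288 genes against 1 in edgeR. Regions stand in for replicates in these tests, whose p-values therefore say nothing about spread between mice. Whether the zones of a genotype came from the same mice is not given in the sources used here, and the departure rests on the 2 infarct libraries.

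The genes that share the sarcomere with *Mybpc3* followed the infarct zone in most cases. In the infarct zone test 28.5% of all tested genes were called lower and 29.1% higher. Of 12 thick filament, M-band, and Z-disc partners, 9 were lower in the infarct zone and 1 was higher. They included *Myl2* and *Myl3*, the ventricular regulatory and essential light chains, with log2 changes of -1.41 and -1.61, and *Myh6*, the adult mouse myosin motor, at -1.62. The higher gene was *Fhl1*, a LIM protein, at 0.38, and *Myh7*, the fetal and slow myosin, did not pass at 0.73 (adjusted p = 0.29, edgeR). All 5 thin filament genes fell, among them *Actc1* (cardiac actin) at -1.16, *Tpm1* (tropomyosin) at -1.20, and *Tnnt2* (cardiac troponin T) at -1.12. None of these 17 genes was called between genotypes across regions. Over all tested genes only 0.0615% were called lower and 0.0769% higher in TKO, so nothing is read from this.

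Within a library, the number of *Mybpc3* counts per count of another sarcomere gene needs no scaling between libraries. From LV to infarct zone in WT, *Mybpc3* gained beyond counting error on 11 of 17 sarcomere genes, with a median ratio of ratios of 1.19, and in TKO it gained on 7 of 17, with a median of 0.977. The spread was wide at its ends. *Mybpc3* per *Myh6* rose 2.76-fold from LV to infarct zone in WT and was 0.837-fold in TKO, whereas *Mybpc3* per *Myh7* was 0.0977-fold in WT and 0.173-fold in TKO. *Fhl1* and *Myom3*, an M-band protein, singled out after their values were seen, gave 0.217-fold and 0.341-fold in WT.

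Between genotypes, *Mybpc3* per count of a sarcomere gene was higher in TKO beyond counting error for 16 of 17 genes in the LV, with a median ratio of 1.36, and within counting error for *Actc1*. It was higher for 15 of 17 in the infarct zone (median 1.12), 12 of 17 in the remote zone (median 1.10), and 6 of 17 in the border zone (median 0.945). In the LV the ratio of ratios reached 1.96 for *Myh6*. These counts share the *Mybpc3* value of 1 library pair and are not independent of each other. In the LV the TKO over WT ratio was 1.30 for *Mybpc3* and 1.01 for the median tested gene. *Mybpc3* thus gained there on most tested genes of any kind, and the tally is not particular to the sarcomere. The share over all genes was not counted for these tallies or for those from LV to infarct zone.

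**Figure D3:**
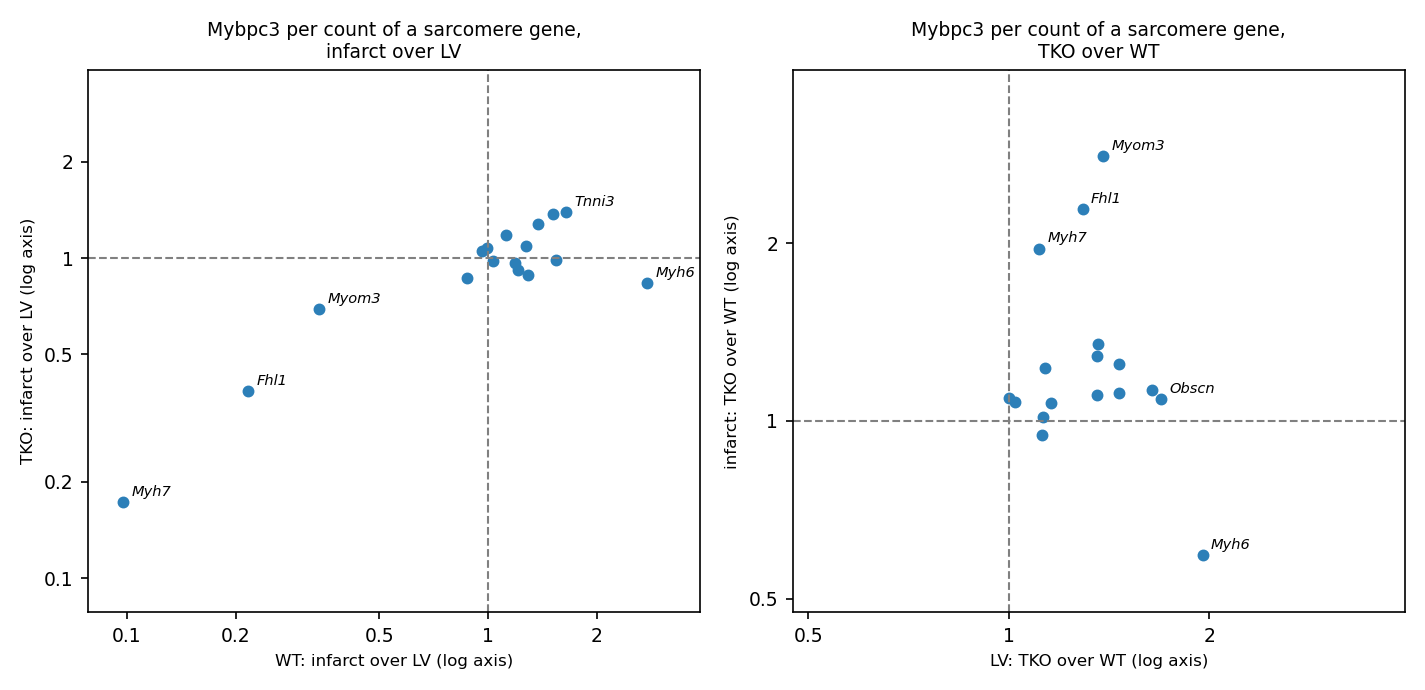
*Mybpc3* counts per count of each of 17 sarcomere genes within a library, as ratios between libraries on log axes, 1 point per gene with the 5 farthest from no change named. Left, infarct zone over LV in WT (horizontal) and TKO (vertical), where *Myh7* lies lowest at 0.0977 and 0.173. Right, TKO over WT in the LV (horizontal) and infarct zone (vertical), where 16 of 17 points lie right of 1 for the LV and *Actc1* on it, and *Myh6* lies lowest for the infarct zone at 0.592. Dashed lines mark no change.

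Set against each other per transcript length, the slow isoform was a small part of the pair everywhere. *Mybpc1* made up 0.652% of *Mybpc1* plus *Mybpc3* in the WT infarct zone (exact 95% binomial interval 0.578% to 0.733%) and 0.0514% in the WT border zone (0.0378% to 0.0683%). It made up 0.00964% in the WT LV and 0.00739% in the WT remote zone. In TKO hearts the share was 0.0138% in infarct, 0.00327% in border, 0.00106% in remote, and 0.000979% in LV tissue (0.0000248% to 0.00546%), the last 3 at 1 to 3 counts of *Mybpc1*. The cardiac transcript thus exceeded the slow one by 152-fold per length in the WT infarct zone and by 1945-fold in the WT border zone. Both parts of the ratio moved in the WT infarct zone, where *Mybpc1* was highest and *Mybpc3* lowest.

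The other family members did not share one pattern. *Mybpc2*, the fast skeletal isoform, had 490 counts in the WT LV, 628 in the infarct, 706 in the border, and 498 in the remote zone, and 571, 495, 537, and 449 in the same TKO regions. Its counts overlapped between genotypes and regions, and it passed neither the infarct zone test (log2 change -0.38, adjusted p = 0.087, edgeR) nor the genotype test (-0.07, adjusted p = 0.78, edgeR). Per length it stood at 3.83 to 6.35 CPM per kilobase, above *Mybpc1* (at most 1.68) and below *Mybpc3* (at least 256) in every library. *Mybph*, MyBP-H, had 10 counts in the WT infarct zone and 0 to 2 elsewhere, but 46.4% of its stretches of 31 bases recur in *Adora1* on the opposite strand, so its counts are uncertain.

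*Mybphl*, the MyBP-H-like gene of atrium and conduction tissue, was highest in the remote zone, with 772 counts in WT and 285 in TKO. It had 10, 117, and 65 counts in the WT LV, infarct, and border zone and 20, 12, and 34 in TKO. Atrial genes were high in the same 2 remote libraries: *Myl4*, the atrial essential light chain, had 8492 counts in the WT and 3325 in the TKO remote zone against 177 to 1464 elsewhere. *Myl7*, the atrial regulatory light chain, chosen after its values were seen, had 5227 and 2031 against 44 to 682. *Kcnj3*, an atrial potassium channel subunit, had 2326 and 2102 against 489 to 1774. The atrial list, which includes *Mybphl*, summed to 2679 CPM in the WT and 790 in the TKO remote zone and 252 to 3085 elsewhere, the top of that range being the WT infarct zone, where *Nppa*, the atrial natriuretic peptide that stressed ventricles also make, had 126364 counts. The part of atrial tissue in the *Mybphl* counts was not tested.

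Part of the skeletal muscle fiber list was high in the same 2 libraries as *Mybpc1*, and part was not. Of the genes named in this paragraph, all but *Atp2a1* passed the filter used for tests only through the WT infarct library. Their high counts there are a description. Of 25 genes listed, 22 had a row, and 17 of them were highest in the WT infarct library, 12 of these with the WT border library next. The share of all genes highest in that library was not counted, so nothing is read from the 17. High values there are common, as 18.8% of tested genes were at least 2-fold above the WT LV. *Ryr1*, the skeletal calcium release channel, had 275 counts in WT infarct tissue, 43 in WT border tissue, and 0 or 1 in the other 6 libraries. *Myh4*, the fastest myosin, had 1486 and 193 against 1 to 6, and *Myh1* 1263 and 157 against 3 to 10. *Tnnc2*, fast troponin C, had 888 and 127 against 2 to 12. The same holds for *Atp2a1* (1874 and 263 against 16 to 43), the fast fiber calcium pump, and *Mylpf* (743 and 135 against 0 to 16), a fast light chain. How many of all genes have a gap between these 2 WT libraries and the other 6 was not counted, so nothing is read from it.

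The ratio of WT infarct to WT border zone, 4.32 for *Mybpc1*, was 4.66 for *Ryr1*, 5.61 for *Myh4*, 5.86 for *Myh1*, 5.09 for *Tnnc2*, 5.19 for *Atp2a1*, 5.02 for *Tnnt3*, 4.90 for *Tnni2*, 4.01 for *Mylpf*, and 3.70 for *Actn3*. *Myh2* was higher at 8.58. All but *Atp2a1* and *Tnnt3* of these skeletal genes passed the filter only through the WT infarct library. Nothing is read from how near their ratios lie to that of *Mybpc1*. Members of the list that the other libraries also expressed did not follow. *Tnnt1*, slow troponin T, had 202 and 190 counts in these 2 libraries against 200 to 387 elsewhere, and *Cacna1s* 205 and 310 against 260 to 639. *Tnni1*, slow and fetal troponin I, had 223 and 243 but also 170 in the WT remote and 158 in the TKO infarct zone. *Myl1* had its second highest count, 1411, in the WT remote zone. On the TMM scale that zone was its highest, with the WT infarct zone at 0.793 of it. *Casq1* had 347 counts in the WT infarct zone against 79 to 193 elsewhere, but on the TMM scale it was only 1.10-fold above the TKO LV. The embryonic and neonatal myosins *Myh3* and *Myh8* had 21 and 72 counts in the WT infarct zone, against 0 to 5 and 5 to 29 elsewhere. *Pvalb*, a calcium buffer of fast fibers, had 769 there, 140 in the WT border zone, and 22 to 57 in the other 6. *Myog*, a factor of muscle differentiation, had 7 counts there and 0 in the others, *Myf6* 10 against 0 to 3, and *Chrna1*, a subunit of the muscle acetylcholine receptor, 26 against 0 to 8. *Chrng*, its fetal subunit, had 0 to 4 in all. The genes that define satellite cells and early myoblasts, *Pax7*, *Myf5*, and *Myod1*, were listed but had no row in the count table.

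**Figure D4:**
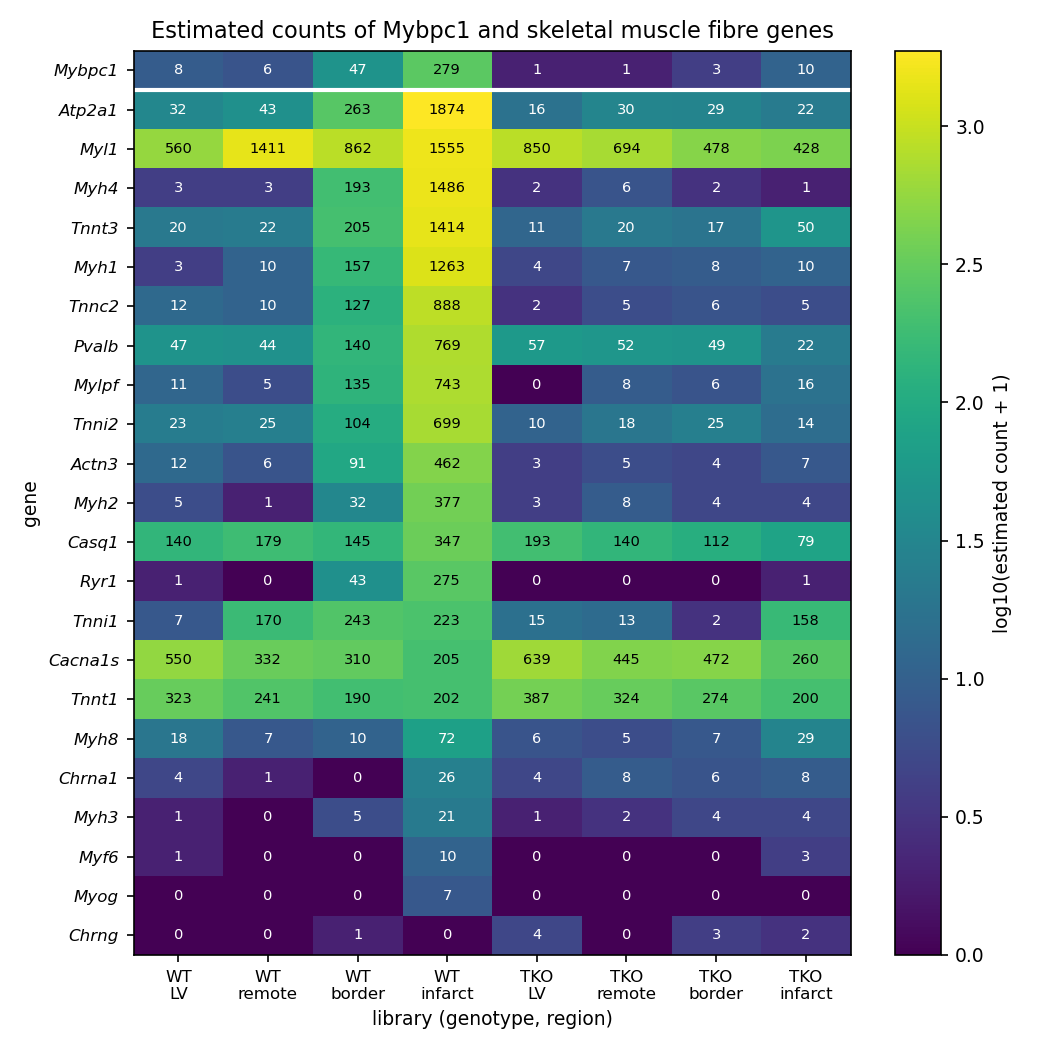
Estimated counts of *Mybpc1* (top row) and 22 skeletal muscle fiber genes (rows below, ordered by their WT infarct count) in the 8 libraries. Color is log10 of the count plus 1, and the count is printed in each cell. The WT infarct and WT border columns are bright for *Mybpc1* and most of the genes, whereas *Tnnt1*, *Cacna1s*, and *Myl1* are bright throughout.

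Summed over the 22 genes, the level was 305 CPM in the WT infarct zone and 106 in the WT border zone. It was 64.7 in the WT LV, 82.5 in the WT remote zone, 85.2 in the TKO LV, 59.5 in the TKO remote zone, 50.8 in the TKO border zone, and 37.0 in the TKO infarct zone. Of 16 members that passed the filter, 8 passed only through the WT infarct library, as *Mybpc1* did, among them *Ryr1*, *Myh4*, *Myh1*, and *Tnnc2*. Such genes had to be high there, so no test is given for them. Of the other 8, 1 rose in the infarct zone test (*Tnnt3*), 2 fell (*Tnnt1* and *Cacna1s*), and none was called between genotypes across regions. Over all tested genes 29.1% were called higher and 28.5% lower in the infarct zone test. Between genotypes 0.0769% were called higher and 0.0615% lower in TKO. In the LV, where *Mybpc1* had 8 counts in WT and 1 in TKO, 3 of the 16 were at least 2-fold lower in TKO and none was 2-fold higher. Of all tested genes, 3.56% were at least 2-fold lower there. All 3 were genes that passed the filter only through the WT infarct library, so nothing is read from them. Of the 8 that passed without it, 0 were 2-fold lower. In the LV *Tnnc2* had 12 against 2 counts, *Mylpf* 11 against 0, *Actn3* 12 against 3, *Tnni2* 23 against 10, and *Tnnt3* 20 against 11, in WT and TKO in turn. Other members went the other way: *Tnnt1*, *Cacna1s*, *Casq1*, and *Chrng* were among those higher in the TKO LV than in the WT LV. The summed level of the list was also higher in the TKO LV, at 85.2 against 64.7 CPM. The part of skeletal muscle transcripts in the *Mybpc1* result was not tested in any region, nor was whether the samples held skeletal muscle from outside the heart.

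Slow skeletal genes that the ventricle also uses went with *Mybpc3* instead. Of 8, 6 fell in the infarct zone and 1 rose, against 28.5% of all tested genes called lower and 29.1% higher. They were led by *Atp2a2*, the cardiac and slow fiber calcium pump, with a log2 change of -1.67, next to *Myl2* and *Myl3*. The gene that rose was *Tpm3*, a tropomyosin, at 0.80.

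In the infarct zone test 28.5% of all tested genes were called lower and 29.1% higher. Of 9 kinase and phosphatase genes whose products act on MyBP-C, 5 fell in the infarct zone and none rose. *Prkaca*, a catalytic subunit of protein kinase A, fell by 1.09 on the log2 scale, and the phosphatase subunits *Ppp1cb* and *Ppp2ca* fell by 0.78 and 0.54. None of the 9 was called between genotypes or was 2-fold different between TKO and WT in any region. Over all tested genes only 0.0615% were called lower and 0.0769% higher in TKO, so nothing is read from the absence of calls.

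By Pearson correlation of log2 CPM over the 8 libraries, the 5 genes most like *Mybpc1* of 16220 ranked were *Tmem128* (r = 0.979), *Tnnt3* (0.970), *Actn3* (0.970), *Tnnc2* (0.965), and *Elmod2* (0.963). Of these, *Tnnt3*, *Actn3*, and *Tnnc2* belong to fast skeletal fibers. *Tmem128* had 213 to 480 counts and *Elmod2* 314 to 665, so a high r here goes with a range much narrower than that of *Mybpc1*. The genes most like *Mybpc3* were *Ndufaf7* (0.995), *Fam98a* (0.994), *Vps26a* (0.993), *Actc1* (0.993), and *1190007I07Rik* (0.992). The correlation between the 2 members was -0.81. The points share depth, scaling, and the infarct zone, and the lists are a description.

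The genomic neighbors of the members did not follow them as a group. Next to *Mybpc1*, *Chpt1*, an enzyme of choline phospholipid synthesis 14206 bases away, had 6035 counts in the WT infarct zone, its lowest value, against 8286 in the TKO infarct zone and 10620 to 12775 elsewhere. *Sycp3*, of meiotic chromosomes, had 11 to 40 counts, *Spic*, a macrophage factor, 6 to 40, and *Arl1*, a Golgi GTPase, 3071 to 4339. Upstream of *Mybpc3*, at 2388 bases, *Spi1*, the myeloid factor PU.1, had 1090 counts in the WT and 546 in the TKO infarct zone against 118 to 272 elsewhere. It was higher in the infarct zone by 1.61 on the log2 scale (adjusted p = 0.00061, edgeR), opposite to *Mybpc3*. *Madd*, 844 bases downstream, had 292 to 647 counts, *Slc39a13* 580 to 1471, and *Nr1h3*, a liver X receptor, 372 to 468. In the same edgeR test *Slc39a13* was higher in the infarct zone (log2 change 0.49, adjusted p = 0.0027). *Nr1h3* was lower, in the direction of *Mybpc3* (-0.38, adjusted p = 0.040, edgeR), and *Madd* did not pass (0.36, adjusted p = 0.053, edgeR).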

How the data were processed

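Total RNA of 8 mouse heart libraries was sequenced, 1 per genotype and region. The authors trimmed reads with Trim Galore 0.6.5, quantified transcripts with kallisto 0.46 against mm10 (GRCm38), and used tximport for gene sums. The values deposited are estimated counts as whole numbers, not normalized.

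Levels, ratios, and tests used edgeR 4.0.16 under R 4.3.3. TMM factors rest on 12999 genes whose mean CPM reached 1. Intervals are exact at 95%, and 3 counts were taken as the floor. Counts of genes past 2-fold add a prior count of 2 to each library. The 3 quasi-likelihood tests used Benjamini-Hochberg adjustment over all tested genes at 0.05, with DESeq2 1.42.0 as an alternative, and were tested on simulated data. No test is given for *Mybpc1*. Gene models came from GENCODE vM21.

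The members and gene lists were chosen with earlier results of these data known. Named were the MyBP-C family, the 5 genes most like each member among those with at least 10 counts, the 2 nearest coding genes on each side, the 3 highest genes of each list described, the skeletal genes above 3 counts, and *Tigar*. Other genes were named after their values were seen. The pathway, diet, and methylation data were not used here.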

Additional observations from a re-analysis of the deposited data

How the results depend on the processing

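For *Mybpc1*, the 48 ratios under other scalings or a prior count of 2 stayed inside their counting intervals, which are wide. Total counts moved WT infarct over LV from 22.6 to 40.1, and a prior count of 2 moved TKO over WT to 0.310 in the LV, 0.105 in the border, and 0.377 in the remote zone, and TKO infarct over LV to 3.33. For *Mybpc3*, total-count scaling turned the direction of 2 ratios, TKO over WT in the border zone (0.973) and WT border zone over LV (1.08). It gave TKO over WT 1.65 in the infarct and 1.16 in the remote zone, zone over LV 0.590 in the infarct and 0.915 in the remote zone for WT, and 0.747, 0.807, and 0.820 in the infarct, border, and remote zone for TKO. TMM from all genes gave TKO over WT 1.31 in the LV and 2.07 in the infarct zone, and zone over LV 0.316 for the WT infarct, 0.891 for the WT remote, and 0.498 for the TKO infarct zone. TMM over the 2 libraries compared gave TKO over WT 1.29 in the LV and zone over LV 0.327 for the WT infarct, 0.798 for the TKO border, and 0.813 for the TKO remote zone. DESeq2 size factors gave TKO over WT 1.05 in the border zone, and leaving out the mitochondrial DNA-encoded genes gave 0.509 for the TKO infarct zone over LV. With the union of exons as length, *Mybpc1* made up 0.566% of the pair in the WT infarct zone.

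The genotype test called 18 genes, against 342 in the DESeq2 Wald test, 56 with total counts, 83, 8, 7, and 3 with the LV, infarct, border, or remote zone left out, and 7 with only the LV and remote zone, chosen after seeing the data. *Mybpc3* was not called under any of these. In the departure test, DESeq2 called 288 genes against 1, and *Mybpc3* (0.79) passed there with adjusted p = 0.0058. The lower level of *Mybpc3* in the infarct zone passed under every alternative run for it. Of the 5 genes most like *Mybpc1*, 1 was shared by Spearman's rank and 2 by total-count scaling, and of those most like *Mybpc3*, 0 and 2. The causes of these shifts were not tested. The labels carry no replicate numbers, so region and genotype were the only blocks. Counts of 1 to 10 limit every *Mybpc1* value outside the WT infarct and border zones.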
